A study of Homo sapiens with 12 samples.

Results

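The BCL2 family of apoptosis regulators was followed through 4 conditions in MM.1S, a human multiple myeloma cell line. The family is described by 10 genes fixed by their Ensembl identifiers (each with the suffix the array definition gives it), out of 17710 genes measured on each array, and all 10 were present. They are the prosurvival genes BCL2 (ENSG00000171791_at), MCL1 (ENSG00000143384_at) and BCL2L1 (ENSG00000171552_at, encoding BCL-XL), the effectors BAX (ENSG00000087088_at) and BAK1 (ENSG00000030110_at), and the BH3-only genes BMF (ENSG00000104081_at), BCL2L11 (ENSG00000153094_at, encoding BIM), BBC3 (ENSG00000105327_at, encoding PUMA), PMAIP1 (ENSG00000141682_at, encoding NOXA) and BAD (ENSG00000002330_at). Cells were left untreated (Control) or received PIM447, a pan-PIM kinase inhibitor, at 100 nM over 24 h (PIM). The doublet (Pd) was 200 nM of pomalidomide with 5 nM of dexamethasone, given for 15 h, and the triple combination (PIM-Pd) joined all 3 agents at the same doses for 10 h. Each group had 3 arrays, numbered as experiments 1 to 3. Every treatment was sub-lethal, with viability given as 74% to 81%. The study measured viability by MTT assay relative to untreated cells, so these values are not shares of living cells. Because exposure ranged from 10 to 24 h, drug and time cannot be told apart when treated groups are set against each other, and the time at which untreated cells were collected is not given in the sources used here.

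The family decides whether the mitochondrial outer membrane is breached, the committing step of intrinsic apoptosis. BCL2, MCL1 and BCL-XL hold BAX and BAK in check, while BH3-only proteins, induced or activated by stress and drugs, bind the prosurvival members and release the effectors. Plasma cells and most myelomas are known for their reliance on MCL1, glucocorticoids are known to kill lymphoid cells through BH3-only proteins such as BIM, and PIM kinases phosphorylate BAD, which keeps it away from its prosurvival partners.

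Expression is given as log2 values after RMA normalisation, so a difference of 1 is a doubling, and each gene has a single value, in which splice forms are not separated. A value shows the share of a transcript in the RNA of each culture, and fewer cells of one state cannot be told apart from less RNA per cell. Array medians lay between 4.81 and 4.89, and arrays of one group correlated across genes at r = 0.987 to 0.993. Of the plasma cell markers that could be named, IRF4, SLAMF7 and CD38 had mean log2 levels of 10.07, 9.94 and 8.46 in Control arrays, all above the array medians. The T cell marker CD3E was at 4.63 in these arrays, below the medians. The endothelial marker PECAM1, which plasma cells also carry, was at 4.88, slightly above the Control medians of 4.82, 4.83 and 4.81. Only 3 of 8 plasma cell markers and 2 of 12 markers of other cell types could be named. IRF4 was 2.15-fold lower in Pd and 2.18-fold lower in PIM-Pd (adjusted p = 0.00019 and 0.00012), whereas CD38 was 1.34-fold higher in PIM-Pd (adjusted p = 0.0463) and SLAMF7 did not pass in Pd or PIM-Pd (log2 differences -0.50 and -0.19, adjusted p = 0.0839 and 0.596). PECAM1 was 1.65-fold higher in PIM-Pd (adjusted p = 0.0494), and CD3E had a log2 difference of -0.57 there (adjusted p = 0.0573). The part of these markers in the results below was not tested. The glucocorticoid targets TSC22D3 and FKBP5 rose 5.62-fold and 3.31-fold in Pd (adjusted p = 7.55e-06 and 7.59e-05) and 7.05-fold and 3.47-fold in PIM-Pd (adjusted p = 1.42e-06 and 3.70e-05), and in PIM their log2 differences were -0.36 and -0.39 (adjusted p = 0.809 and 0.795).

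Of the 10 family transcripts, 3 passed the test against Control in at least 1 treatment, and all 3 rose. Each treatment was compared with Control by limma, with p-values adjusted over all 17710 genes and 0.05 as the threshold. PIM-Pd raised 3 of the 10 genes, BMF, MCL1 and BCL2, where 9.44% of all genes changed, 4.42% rising and 5.02% falling. Pd raised 1 of the 10, BMF, where 5.42% of all genes changed, 3.48% rising and 1.94% falling. PIM447 alone changed 0 of the 10 by limma, and 0 of the 17710 genes, and 1 member (BMF) and 6.2% of all genes had an unadjusted p under 0.05. None of the 10 passed the test as lower in any comparison. BID, a BH3-only relative outside the 10, did pass as lower in PIM-Pd and is given below. Over the 10 genes the median log2 difference was -0.02 in PIM-Pd, 0.03 in Pd and -0.0044 in PIM, beside medians over all genes of 0.0084, -0.0089 and 0.0099. The 3 comparisons share their Control arrays and are not independent of each other.

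**Figure D1:**
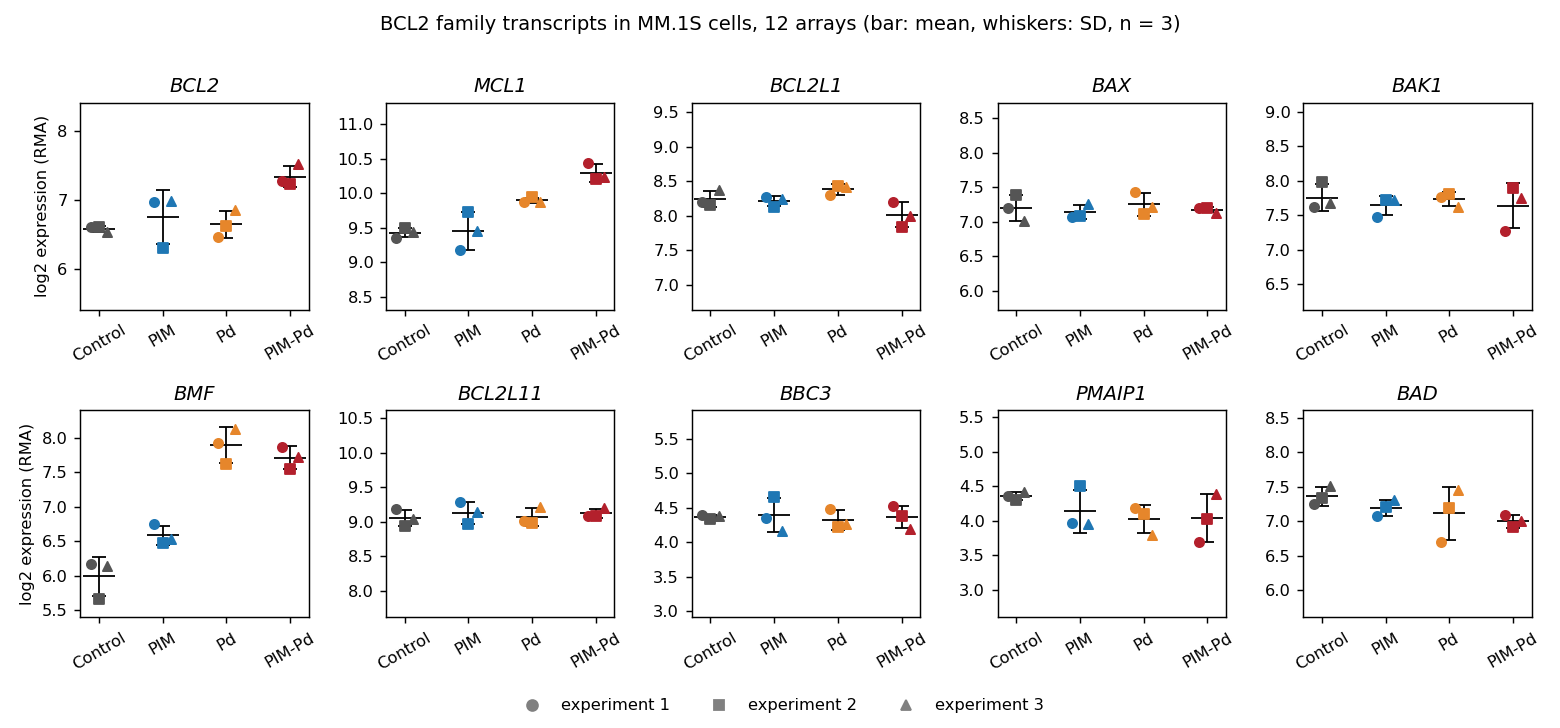
Expression of the 10 BCL2 family genes (y axis, log2 RMA values, each panel spanning 3 log2 units) in the 4 groups (x axis), with 1 symbol per array, shaped by experiment, and the group mean and SD in black. BMF stands higher in all 3 Pd and all 3 PIM-Pd arrays than in any Control or PIM array, and BCL2 stands higher in all 3 PIM-Pd arrays than in any other array.

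Among the BH3-only genes, BMF was the member that responded. BMF encodes a BH3-only protein, a kind that binds prosurvival members. Its log2 level was 6.17, 5.66 and 6.15 in the Control arrays of experiments 1, 2 and 3, and 6.75, 6.48 and 6.54 in PIM. It reached 7.93, 7.63 and 8.13 in Pd and 7.88, 7.55 and 7.72 in PIM-Pd. The Control, PIM and Pd ranges did not overlap, and neither did those of PIM and PIM-Pd, while the Pd and PIM-Pd ranges did. BMF rose 3.74-fold in Pd (log2 difference 1.90 ± 0.16 SE, adjusted p = 1.26e-05). In PIM-Pd it rose 3.30-fold (1.72 ± 0.16 SE, adjusted p = 2.04e-05), with a 95% interval from 2.60-fold to 4.19-fold. Within the numbered experiments the log2 difference from Control ran from 1.76 to 1.99 in Pd and from 1.58 to 1.89 in PIM-Pd, positive in 3 of 3 each time.

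The same gene gave the smallest p among the members after PIM447 alone. BMF was 1.51-fold higher in PIM than in Control (log2 difference 0.60 ± 0.16 SE), with differences from 0.40 to 0.81 within the 3 experiments. Its unadjusted p of 0.0022 became 0.666 after adjustment over all genes, so this difference did not pass the test.

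The start regions of the genes are shown because BMF and BCL2 rose while BCL2L11, a BH3-only relative, did not pass the test. The set of RefSeq (GRCh38.p14) start regions at hand held none for MCL1, which is named only. For 9 of the 10 genes it held regions covering 250 bases before and 50 bases after an annotated start. They were searched on both strands for a glucocorticoid receptor half-site (AGAACA), a FOXO site (GTAAACA) and the E-box bound by MYC and MAX (CACGTG), none of which overlapped another. Across the 35116 regions of the table, 14.8% held the half-site, 3.42% the FOXO site and 7.26% the E-box. Capitals mark a match, and each sequence runs 5′ to 3′ along the gene.
BMF, chr15:40106917-40107216, minus strand: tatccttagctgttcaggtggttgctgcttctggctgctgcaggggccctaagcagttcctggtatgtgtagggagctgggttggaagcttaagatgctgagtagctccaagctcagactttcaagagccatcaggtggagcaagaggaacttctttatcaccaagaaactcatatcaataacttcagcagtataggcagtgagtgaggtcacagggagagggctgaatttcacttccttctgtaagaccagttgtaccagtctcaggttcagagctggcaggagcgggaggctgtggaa
BMF, chr15:40108830-40109129, minus strand: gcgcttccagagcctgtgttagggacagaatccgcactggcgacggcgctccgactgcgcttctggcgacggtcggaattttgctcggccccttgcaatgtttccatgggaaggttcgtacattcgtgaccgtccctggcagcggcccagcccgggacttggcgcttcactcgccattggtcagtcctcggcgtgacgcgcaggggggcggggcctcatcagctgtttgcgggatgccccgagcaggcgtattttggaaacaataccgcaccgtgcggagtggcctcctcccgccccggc
BCL2, chr18:63319720-63320019, minus strand: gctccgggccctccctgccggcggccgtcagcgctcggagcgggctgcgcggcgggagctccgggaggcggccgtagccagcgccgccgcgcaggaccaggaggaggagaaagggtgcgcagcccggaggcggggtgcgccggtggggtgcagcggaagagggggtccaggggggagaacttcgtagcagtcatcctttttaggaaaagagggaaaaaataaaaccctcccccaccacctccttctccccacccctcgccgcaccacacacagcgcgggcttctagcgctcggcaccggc
BCL2L11, chr2:111120664-111120963, plus strand: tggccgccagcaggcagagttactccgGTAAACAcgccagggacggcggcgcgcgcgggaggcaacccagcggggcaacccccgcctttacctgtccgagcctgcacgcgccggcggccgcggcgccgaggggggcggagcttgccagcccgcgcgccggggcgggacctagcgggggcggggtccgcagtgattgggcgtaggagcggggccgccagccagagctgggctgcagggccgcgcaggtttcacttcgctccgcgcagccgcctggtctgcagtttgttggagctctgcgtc

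Neither BMF region nor the BCL2 region held any of the 3 motifs in these windows. The BCL2L11 region held a FOXO site, with its first base at position -223 from the start. Elsewhere in the family, BAX held 4 E-boxes and BBC3 held 1, and both genes stayed below the threshold in all comparisons. These matches describe letters in short windows and say nothing of binding in these cells.

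BIM, the BH3-only protein most often tied to glucocorticoid killing, did not pass the test at the transcript level. BCL2L11 was at 9.18, 8.94 and 9.04 in Control, 9.29, 8.97 and 9.14 in PIM, 9.01, 8.98 and 9.21 in Pd, and 9.08, 9.09 and 9.19 in PIM-Pd. All 4 groups overlapped. Its log2 difference from Control was 0.08 ± 0.12 SE in PIM, 0.01 ± 0.12 in Pd and 0.07 ± 0.12 in PIM-Pd (adjusted p = 0.949, 0.981 and 0.850), and the 95% intervals of the latter comparisons reached 1.20-fold and 1.25-fold at most. A rise of BCL2L11 as large as that of BMF lay outside these intervals.

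The other BH3-only genes did not pass the test either. BBC3, a p53-induced gene, had group means between 4.32 and 4.39, and its log2 differences from Control lay between -0.05 and 0.02. PMAIP1, whose product NOXA binds MCL1, was at 4.36, 4.30 and 4.43 in Control and at 4.19, 4.10 and 3.80 in Pd. The Pd values all lay below the Control values, yet the log2 difference of -0.33 ± 0.18 SE had an adjusted p of 0.397. In PIM-Pd, PMAIP1 spread from 3.70 to 4.39 and overlapped Control (log2 difference -0.32 ± 0.18 SE, adjusted p = 0.369). BBC3 and PMAIP1 were dim, with means over the 12 arrays above only 41.9% and 37.8% of all genes, where RMA values are compressed and small differences are hard to see.

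BAD, the family member that PIM kinases modify, tended lower without passing. It was at 7.25, 7.33 and 7.51 in Control and between 6.91 and 7.10 in PIM-Pd, and these groups did not overlap. The log2 difference was -0.36 ± 0.16 SE, with an unadjusted p of 0.0389 and an adjusted p of 0.208. In PIM the difference was -0.17 ± 0.16 SE (adjusted p = 0.902), and in Pd it was -0.25 ± 0.16 SE (adjusted p = 0.508), where 1 array at 6.70 lay well below the other two at 7.20 and 7.46. Phosphorylation, through which PIM kinases act on BAD, is not seen by an array.

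Both prosurvival genes that changed went up, and they did so with the triple combination. MCL1, the main survival factor of plasma cells, was at 9.36, 9.49 and 9.44 in Control and at 9.18, 9.72 and 9.45 in PIM. It was at 9.87, 9.94 and 9.87 in Pd and at 10.44, 10.21 and 10.24 in PIM-Pd. Every PIM-Pd array was above every Pd array, and every Pd array above every Control and PIM array. In PIM-Pd, MCL1 rose 1.82-fold over Control (log2 difference 0.87 ± 0.13 SE, adjusted p = 0.00073), with a 95% interval from 1.50-fold to 2.21-fold. In Pd it was 1.38-fold higher (0.47 ± 0.13 SE), positive in 3 of 3 experiments (0.43 to 0.52), with an adjusted p of 0.0516, just above the threshold. That call changed under 6 of 18 other ways of fitting, whose adjusted p ran from 0.0168 to 0.179. It passed without PIM replicate 1, PIM replicate 2 or PIM-Pd replicate 1 (adjusted p = 0.0257, 0.0252 and 0.0468). In PIM the difference was 0.02 ± 0.13 SE (adjusted p = 0.993).

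BCL2, the founding antiapoptotic member and the target of venetoclax, stood high in the triple combination. It was at 6.61, 6.61 and 6.53 in Control, 6.97, 6.30 and 6.98 in PIM, 6.47, 6.62 and 6.85 in Pd, and 7.27, 7.23 and 7.51 in PIM-Pd. All PIM-Pd arrays lay above the other 9 arrays, and the other groups overlapped. BCL2 rose 1.69-fold in PIM-Pd over Control (log2 difference 0.76 ± 0.17 SE, adjusted p = 0.0094), with a 95% interval from 1.32-fold to 2.16-fold. Its difference was 0.06 ± 0.17 SE in Pd (adjusted p = 0.922) and 0.17 ± 0.17 SE in PIM (adjusted p = 0.909), where the array of experiment 2 was lower than its Control and the other two were higher.

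BCL2L1, which encodes BCL-XL, did not share the rise. It was at 8.20, 8.15 and 8.37 in Control, 8.27, 8.13 and 8.24 in PIM, 8.30, 8.43 and 8.42 in Pd, and between 7.84 and 8.20 in PIM-Pd. The PIM-Pd arrays were all below the Pd arrays and reached into the Control range. The log2 difference from Control was -0.23 ± 0.12 SE in PIM-Pd (adjusted p = 0.306), 0.14 ± 0.12 in Pd (adjusted p = 0.646) and -0.03 ± 0.12 in PIM (adjusted p = 0.985).

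The effectors, which form the pores, did not pass the test in any treatment. BAX had group means of 7.20 in Control, 7.14 in PIM, 7.25 in Pd and 7.17 in PIM-Pd, with SDs from 0.04 to 0.19. BAK1 had means of 7.75, 7.64, 7.73 and 7.64 in the same order, with SDs from 0.10 to 0.33. The groups overlapped for both genes, no log2 difference from Control exceeded 0.12 in size, and every adjusted p was at least 0.790. The 95% intervals for PIM-Pd against Control ran from 0.82-fold to 1.18-fold for BAX and from 0.73-fold to 1.16-fold for BAK1.

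**Figure D2:**
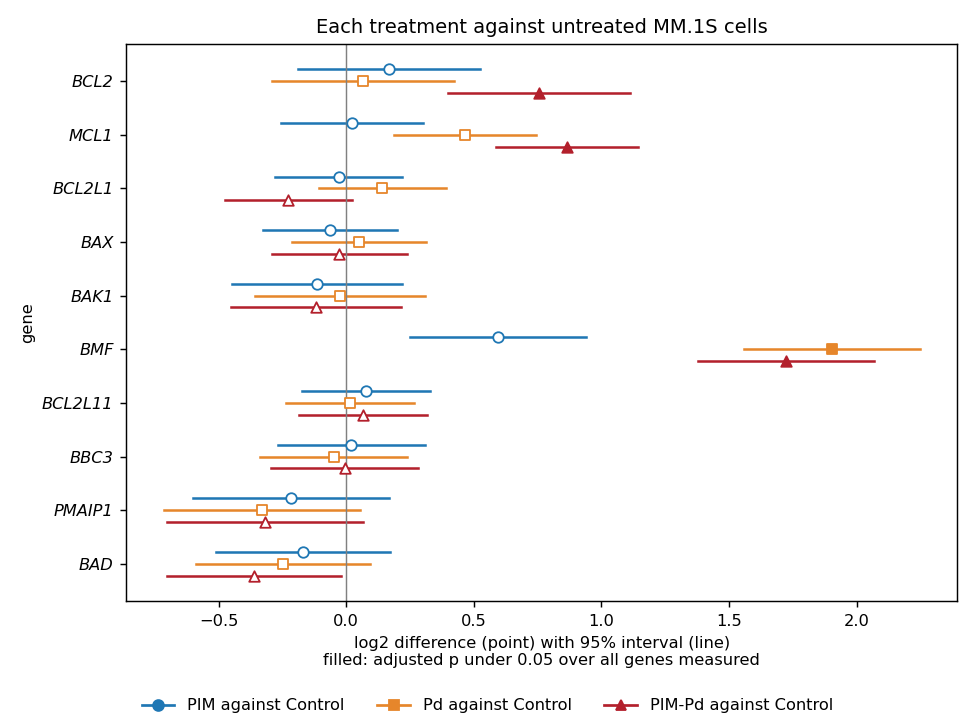
Log2 difference from Control (x axis) of the 10 genes (y axis) for PIM, Pd and PIM-Pd, with 95% intervals as lines and filled symbols where the adjusted p was under 0.05. The filled symbols are BMF at 1.90 (Pd) and 1.72 (PIM-Pd), MCL1 at 0.87 (PIM-Pd) and BCL2 at 0.76 (PIM-Pd).

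**Figure D3:**
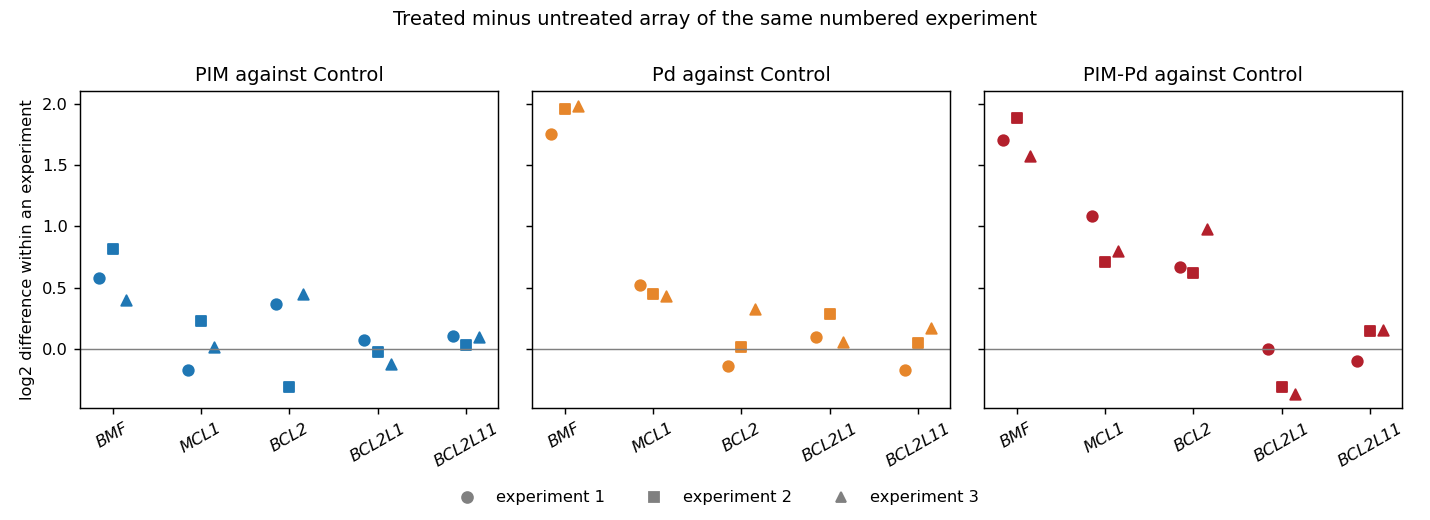
Log2 difference between the treated and the untreated array of each numbered experiment (y axis) for 5 family genes (x axis), 1 panel per treatment. BMF, MCL1 and BCL2 lie above 0 in all 3 experiments of PIM-Pd, and BMF lies above 0 in all 3 experiments of every treatment.

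The triple combination was next set against the doublet, to see which family transcripts differed when PIM447 was added. No member passed: 0 of the 10 by limma, where 0.0791% of all genes did, and 3 members had an unadjusted p under 0.05, beside 8.57% of all genes. BCL2 was 1.62-fold higher in PIM-Pd than in Pd (log2 difference 0.69 ± 0.17 SE, unadjusted p = 0.00091, adjusted p = 0.185), with 0.61 to 0.80 within the 3 experiments. MCL1 was 1.32-fold higher (0.40 ± 0.13 SE, adjusted p = 0.384), again in 3 of 3 experiments. BCL2L1 had a log2 difference of -0.37 ± 0.12 SE (adjusted p = 0.364), lower in 3 of 3 experiments. BMF differed by -0.18 ± 0.16 SE (adjusted p = 0.801), with a 95% interval from 0.70-fold to 1.12-fold. The Pd cultures had 15 h and the PIM-Pd cultures 10 h of exposure.

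Against PIM447 alone, which had 24 h of exposure, 2 of the 10 genes were higher in PIM-Pd, where 5.66% of all genes differed, 2.95% being higher and 2.71% lower. BMF was 2.18-fold higher (log2 difference 1.13 ± 0.16 SE, adjusted p = 0.00068) and MCL1 1.79-fold higher (0.84 ± 0.13 SE, adjusted p = 0.0012). BCL2 was 1.50-fold higher (0.59 ± 0.17 SE), with an adjusted p of 0.0535 that became 0.0348 with the experiment number as a block. It also passed without PIM replicate 1 or PIM replicate 3 (adjusted p = 0.0472 and 0.0382). The other 7 genes had log2 differences between -0.20 and 0.04 and adjusted p-values of at least 0.443.

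**Figure D4:**
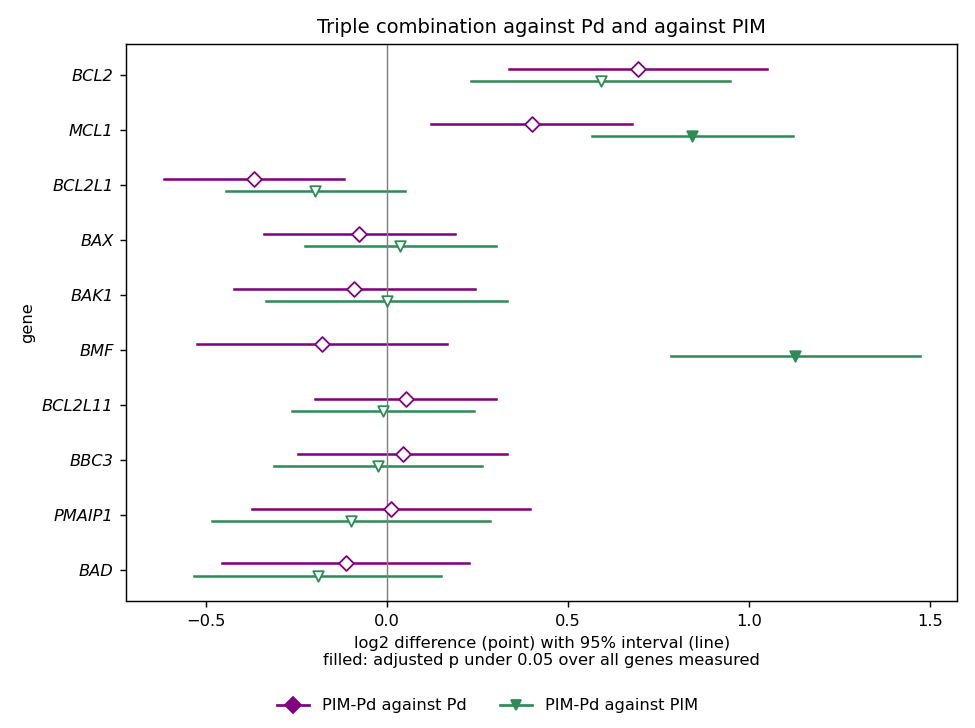
Log2 difference of PIM-Pd from Pd and from PIM (x axis) for the 10 genes (y axis), with 95% intervals as lines and filled symbols where the adjusted p was under 0.05. The 2 filled symbols are BMF at 1.13 and MCL1 at 0.84, both against PIM, and BCL2 lies at 0.69 against Pd with an open symbol.

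Whether the difference that went with PIM447 was the same with and without Pd was tested as an interaction. None of the 10 genes passed (0 by limma, 2 with an unadjusted p under 0.05), where 0.0169% of all genes did and 5.83% had an unadjusted p under 0.05. For BMF the log2 differences from Control in PIM (0.60) and Pd (1.90) added to more than the 1.72 seen in PIM-Pd, with an interaction of -0.78 ± 0.23 SE (unadjusted p = 0.0040, adjusted p = 0.655). For BCL2 the interaction was 0.52 ± 0.24 SE (unadjusted p = 0.0424, adjusted p = 0.842), and for MCL1 it was 0.38 ± 0.18 SE (adjusted p = 0.881). The 3 treated groups entered this contrast at different times.

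The 3 genes that rose each had other transcripts running beside them over the 12 arrays. Names were at hand for 1905 of the 17710 genes, those that the study listed as changed on these same arrays, so close likeness was built into the choice and no test is given. The 12 values of BMF ran closest to TOM1, WLS and CD53 (Pearson r = 0.983, 0.977 and 0.975). Those of MCL1 ran closest to PIP5K1B, TMEM140 and DDOST (r = 0.971, 0.959 and 0.958). Those of BCL2 ran closest to KLF7, GPR32 and RIOK3 (r = 0.921, 0.863 and 0.850). The points share their 4 groups.

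Genes around the family were drawn from lists of other BCL2 relatives, caspase regulators, the death receptor pathway and partners of the family proteins. Only those that the study itself listed as changed could be named, 2 of 14, 3 of 18, 4 of 14 and 2 of 24 in these lists, so no share of a list is given and the direction of those named is not independent evidence. BID, a BH3-only protein cleaved by caspase-8, fell in PIM-Pd, from 7.49, 7.39 and 7.30 in Control to 6.43, 6.41 and 6.24 (log2 difference -1.03 ± 0.16 SE, adjusted p = 0.00077), and in Pd its difference was -0.38 (adjusted p = 0.219). BNIP3L, a mitophagy receptor of the family, rose in Pd and in PIM-Pd by 0.80 on the log2 scale (adjusted p = 0.0033 and 0.0020). CYCS, which encodes cytochrome c, was 1.77-fold lower in Pd and 2.28-fold lower in PIM-Pd (adjusted p = 0.0119 and 0.00063). BIRC3, an inhibitor of apoptosis, rose 1.96-fold in PIM-Pd (adjusted p = 0.0040), and VDAC1, a channel of the outer membrane, was 1.49-fold lower (adjusted p = 0.0049).

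In the death receptor pathway, CFLAR, the inhibitor of caspase-8 known as FLIP, rose 2.02-fold in Pd and 3.01-fold in PIM-Pd (adjusted p = 0.00010 and 1.55e-06). Its log2 level was 9.27, 9.08 and 9.38 in Control, 10.21, 10.37 and 10.20 in Pd, and 10.84, 10.95 and 10.72 in PIM-Pd, with no overlap between these groups. TNFSF10, which encodes the ligand TRAIL, rose 2.31-fold and 2.21-fold (adjusted p = 0.0032 and 0.0030), and CASP10 rose 1.46-fold and 1.56-fold (adjusted p = 0.0051 and 0.0011). TNFRSF10D, a decoy receptor for TRAIL, rose 1.49-fold and 1.35-fold (adjusted p = 0.0105 and 0.0347). It was dim, with mean log2 levels of 3.70 in Control, 4.27 in Pd and 4.13 in PIM-Pd, all below the array medians. Of the protein partners, PIM1, one of the kinases that PIM447 inhibits, was 1.99-fold lower in Pd and 2.13-fold lower in PIM-Pd (adjusted p = 0.0085 and 0.0030), and AKT1 was 1.57-fold lower in PIM-Pd (adjusted p = 0.0134). In PIM none of these genes passed the test.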

How the data were processed

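Total RNA of 12 MM.1S cultures was hybridised to Affymetrix Clariom S human arrays. The deposited values are log2 expression: per the labels and the methods, the authors ran RMA (oligo 1.44.0, R 3.5.0) with a custom BrainArray definition, giving 1 value per Ensembl gene. RMA equalises array distributions and compresses low values, so small changes of dim genes are understated. Groups and experiment numbers were taken from the sample titles.

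limma 3.58.1 (R 4.3.3; lmFit and eBayes, two-sided) was fitted to all 17710 genes and 12 arrays without a block, with 8 residual degrees of freedom and Benjamini-Hochberg adjustment over all genes for each of 6 contrasts. The study used SAM, which was not run here. The fit was tested on simulated data with independent noise and no experiment effect, so that test says nothing of the experiment numbers. The 3 arrays of a group are separate experiments, whose number limits the precision. The labels call the numbers pairs, and deviations from group means correlated between same-numbered arrays from -0.10 to 0.30 (median 0.10, 18 pairs). Between differently numbered arrays of different groups the range was -0.35 to 0.20 (median -0.04, 36 pairs). Alternatives were the replicate block (fixed and random), only the groups compared, leaving out the dimmest 25% of genes, median centring, trended robust moderation, a 2-fold rule and leaving out each array.

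The members and lists were chosen with earlier results of these data known. The 10 members were always named. From each list, up to 4 genes with the largest difference among those that passed in PIM-Pd against Control were named, the remaining nameable genes of a list were added after their values were seen, and any BCL2 relative that passed anywhere. For each member that passed, the 3 most alike genes were named. Symbols of other genes came from the study's own lists of changed genes, 1905 in all, so most genes of the lists are not analysed here.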

Additional observations from a re-analysis of the deposited data

How the results depend on the processing

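The rises of BMF, MCL1 and BCL2 in PIM-Pd, of BMF in Pd, and of BMF and MCL1 in PIM-Pd against PIM passed the test under all 18 alternatives that refit the data, with adjusted p-values up to 0.0454 (BCL2). With the replicate block, 0, 1, 3, 0 and 3 members passed in PIM, Pd and PIM-Pd against Control and in PIM-Pd against Pd and against PIM. Of all genes, 0, 1181, 1934, 11 and 1262 passed in the same order, beside 0, 960, 1671, 14 and 1003 without a block. BCL2 joined in PIM-Pd against PIM (adjusted p = 0.0348), and this block changed no other call of a member. BCL2 also passed there with the random block (0.0445), without the dimmest 25% of genes (0.0450) and with trended robust moderation (0.0491), in 6 of 18 alternatives in all. MCL1 joined BMF in Pd against Control, making 2 members, with the random block, with only the groups compared and with trended robust moderation. Of all genes, 1052, 1328 and 968 passed there under these 3 settings. Asking for a 2-fold difference as well left 1 member, BMF, in PIM-Pd against Control and 1 against PIM, and 191, 255, 1 and 173 of all genes in Pd and PIM-Pd against Control and PIM-Pd against Pd and against PIM. With only the groups compared, 1 and 455 of all genes passed in PIM-Pd against Pd and against PIM, and trended robust moderation gave 26 in the former, where the fit of all 12 arrays gave 14 and 1003.

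Leaving out 1 array at a time gave 1 to 2 members in Pd against Control, where MCL1 passed without PIM replicate 1, PIM replicate 2 or PIM-Pd replicate 1, 3 in each case in PIM-Pd against Control, 2 to 3 in PIM-Pd against PIM, where BCL2 passed without PIM replicate 1 or 3, and 0 in the other contrasts. Of all genes, 497 to 1049 passed in Pd against Control, with 522, 608, 520 and 497 without Control replicates 1 and 3 and Pd replicates 1 and 3, and 1096 (without Control replicate 3) to 1771 in PIM-Pd against Control. In PIM-Pd against PIM they numbered 648 (without PIM-Pd replicate 3) to 953, in PIM-Pd against Pd 2 (without Pd replicate 3) to 15, and in the interaction 0 to 3. Of the 1070 refitted values of single members, 58 changed sign, all of them values below the threshold. The cause of these shifts was not tested. With 3 arrays a group, small differences of dim genes such as PMAIP1 are hard to tell from array spread.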

Other observations

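Among the transcription factors listed for their links to family genes, 4 of 20 could be named, all from the study's own lists of changed genes, so their direction is not independent evidence. E2F1, which drives S-phase genes, was 2.08-fold lower in Pd and 2.49-fold lower in PIM-Pd (adjusted p = 0.0022 and 0.00030), and MYC was 1.80-fold lower in PIM-Pd (adjusted p = 0.0020). STAT3, which carries IL6 signals in myeloma, rose 1.95-fold and 1.84-fold (adjusted p = 0.00072 and 0.0011), and FOXO1 did not pass (log2 differences 0.54 and 0.47, adjusted p = 0.107 and 0.128). FOXO1 was dim, with mean log2 levels of 3.78 in Control, 4.32 in Pd and 4.25 in PIM-Pd. The p53 targets that could be named, 4 of 14, moved both ways in PIM-Pd: CDKN1A rose 1.54-fold (adjusted p = 0.0140) and TP53I3 1.82-fold (adjusted p = 0.0054), whereas AEN was 1.58-fold lower (adjusted p = 0.0053), and XPC did not pass (log2 difference 0.14, adjusted p = 0.571). Of the glucocorticoid targets, 6 of 11 could be named. DDIT4, an inhibitor of mTORC1, rose 16.2-fold in Pd and 15.6-fold in PIM-Pd (adjusted p = 5.02e-11 and 6.17e-11), and TXNIP rose 3.36-fold and 2.72-fold (adjusted p = 0.0116 and 0.0230). KLF9 rose 1.46-fold in PIM-Pd (adjusted p = 0.0278) and did not pass in Pd (log2 difference 0.32, adjusted p = 0.284). It was dim, with mean log2 levels of 4.62 in Control, 4.94 in Pd and 5.17 in PIM-Pd. SGK1 ran the other way without passing in Pd or PIM-Pd (log2 differences -0.59 and -0.51, adjusted p = 0.232 and 0.276).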
